A study of Symphysodon aequifasciata with 2 samples.

Results

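Immunoglobulin chains and lymphocyte receptors were followed in brain RNA of the discus (Symphysodon aequifasciata, a South American cichlid). They were taken as the features whose protein annotation names an immunoglobulin chain, an Ig heavy, kappa, lambda or mu chain, a T-cell receptor, a T-cell surface glycoprotein, a B-cell receptor or the letters CD4. Of 40209 features in the table, 33 met this rule. They were 10 immunoglobulin heavy chain features, 11 light chain features, 6 features of the B-cell receptor CD22, 3 T-cell surface glycoproteins (CD4 and 2 CD3 chains) and the B-cell receptor-associated protein 31. The other 2, CD44 and CD48, came in because their names hold the letters CD4. No annotation in the table held the terms T-cell receptor, Ig lambda or Ig mu.

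The study compared the brain of 1 male with that of 1 female, both 1 year old and from the same breeding laboratory, with no treatment named in the labels other than the anaesthetic used for killing. Values are TPM, a measure of transcript abundance, which scale each library to the same total and divide reads by an effective feature length. With 1 library per sex there is no test. Sex, fish, handling and library cannot be told apart, and every direction below follows the gender labels. The library titles begin with letters that the labels do not explain. If the labels were exchanged, every direction would turn.

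An antibody is built from heavy chains, whose constant region sets its class, and light chains, each with a variable region that is joined from gene segments in every B cell. In bony fish the main classes are IgM, with the mu heavy chain, and IgT, with the tau heavy chain, which is known from mucosal surfaces. Each B-cell clone carries its own pair of variable regions, and plasma cells, the secreting form of B cells, hold very large amounts of antibody mRNA. T cells carry no antibody; they recognise antigen through a T-cell receptor that signals through the CD3 chains, with CD4 as a co-receptor of helper T cells. Few lymphocytes are found within healthy brain tissue, as known mainly from mammals, and more lie in its blood and coverings. In a bulk sample, fewer cells of a type and less RNA per cell cannot be told apart.

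Listed features held 26869714 reads in the male library and 24716998 in the female one, as recovered from the steps in which TPM values rise. Brain markers were present, with snap25, a synaptic protein, at 2201 TPM (male) and 2642 TPM (female), and all 10 listed neuron genes were matched. The lowest value of the higher library was 6.01 TPM, so a feature below this in both libraries is not in the table. Of the 33 members, 10 were under 6.01 TPM in their lower library and so entered through the other library alone. Of paired values the male one is given first, and a fold with no stated direction is female over male. Folds below are ratios of TPM, and each bracketed range is a 95% interval of the fold for counting error alone; how far fish vary is not in it. The interval is exact (Clopper-Pearson) for a single feature and approximate (normal on a log scale) for a sum.

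The summed TPM of immunoglobulin chains was higher in the female library, and that of the other lymphocyte receptors in the male library. The 21 immunoglobulin chain features summed to 3043 TPM (male) and 6347 TPM (female), 0.324% and 0.673% of all TPM listed and a 2.09-fold difference (2.03 to 2.14). The 9 features of CD22, CD3 and CD4 summed to 129 TPM (male) and 78.5 TPM (female), 1.65-fold higher in the male (1.32 to 2.05). These directions are those of sums, and single features went both ways in each. Of the 21 immunoglobulin features, 13 were higher in the male library and 8 in the female, with a median log2 ratio (female over male) of -0.26. Features in general also leaned to the male library, with a median of -0.07 over all and -0.14 over those of up to 500 bases. The share of all features higher in the male library is not given, so counts of features higher in 1 library have no baseline. Of the 9 receptor features, 7 were higher in the male library and 2 in the female. Among those higher in the male, CD3 delta and CD22 features at 5.52 and 2.66 TPM in the female library were under 6.01 TPM there. They entered through the male library alone, where they are high.

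A feature was counted as apart when its log2 ratio, with 0.5 TPM added to both values, reached 2-fold. Of the 33 members, 5 were apart with the female library higher and 9 with the male library higher, where 5.02% and 10.1% of all 40209 features were. That is 42.4% of members apart in either direction, against 15.2% of all features. The median log2 ratio (female over male) was -0.30 over the members and -0.07 over all features, and -0.09 over the 21 members and -0.05 over all features with a mean of at least 10 TPM. Short features rest on few reads and were apart more often throughout the table. Of the 19 members of up to 500 bases, 3 were apart toward the female and 8 toward the male library, against 8.14% and 16.1% of features of that length, or 24.3% in either direction. Of the 14 longer members, 2 were apart toward the female and 1 toward the male library, against 0.748% and 1.91%, or 2.66% in either direction. Of the 23 members at or above 6.01 TPM in both libraries, 3 were apart in each direction, against 2.39% (female) and 4.24% (male) of all features at or above it in both. Of the 21 members with at least 100 reads in one library, 4 were apart in each direction, against 0.838% (female) and 1.85% (male) of such features, or 2.69% in either direction. Only the higher library had to reach 100 reads, so some of those apart passed through the library where they are high. They are features at 1 and 889, 121 and 7, 364 and 82, 119 and 43, and 52 and 197 reads (male first).

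**Figure D1:**
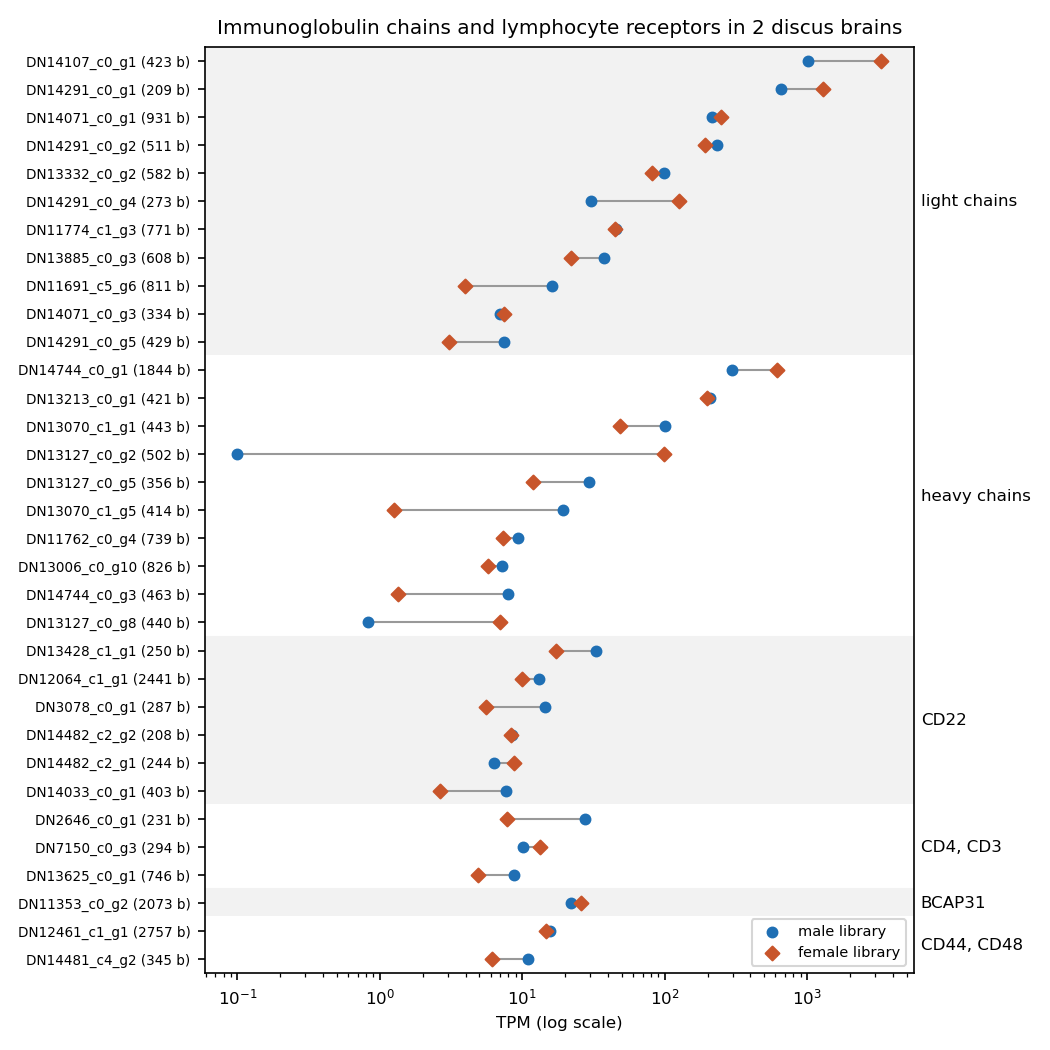
TPM (log scale) of each of the 33 members in the male (circle) and female (diamond) library, grouped by class and ordered by mean, with feature length in bases (b). The light chain feature at the top lies at 1023 and 3327 TPM, and the widest gap is that of a heavy chain feature at 0.10 and 99.01 TPM.

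Light chains, which pair with heavy chains of any class, made up most of the summed immunoglobulin TPM. Such a sum counts each short feature as if it were a whole transcript, so it is not a share of mRNA. Identifiers are given as deposited, without their shared prefix. The most abundant feature, DN14107_c0_g1 (423 bases, immunoglobulin light chain, with a C1-set domain as constant regions have), stood at 1023 TPM (male) and 3327 TPM (female). Its rank was 75 (male) and 11 (female) among all features, a 3.25-fold difference (3.16 to 3.34) over 6788 and 19932 reads. It alone made 43.2% (male) and 62.1% (female) of the light chain sum.

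The next feature, DN14291_c0_g1 (209 bases, lambda-1 light chain-like, V-set domain, the fold of variable regions), stood at 651 and 1300 TPM. Its fold of 2.00 (1.81 to 2.21) lay just short of the call on the log2 scale. DN14291_c0_g4 (273 bases, kappa light chain-like) stood at 30.2 TPM (male) and 127 TPM (female), 4.20-fold higher in the female (3.09 to 5.83). Both come from the same assembly component as 2 features that were higher in the male library.

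Of these, DN14291_c0_g2 (511 bases, light chain variable region) stood at 234 TPM (male) and 191 TPM (female). DN14291_c0_g5 (429 bases, lambda-1 light chain-like) stood at 7.41 and 3.06 TPM, 2.42-fold higher in the male (1.41 to 4.35). Its female value is under 6.01 TPM, so it entered through the male library alone. Related features of one component thus differed in both directions.

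The long light chain features differed less or were higher in the male library. DN14071_c0_g1 (931 bases, light chain) stood at 216 and 250 TPM, 1.16-fold higher in the female (1.12 to 1.20). DN13332_c0_g2 (582 bases, light chain) stood at 98.3 and 81.9 TPM, and DN11774_c1_g3 (771 bases, lambda-1 light chain-like) at 45.5 and 45.1 TPM. The last of these had a fold of 0.99 (0.90 to 1.09), so that the counting interval holds 1.

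DN13885_c0_g3 (608 bases, kappa light chain-like) was 1.71-fold higher in the male (1.48 to 1.98), at 37.6 against 21.99 TPM. DN11691_c5_g6 (811 bases, Ig kappa chain V-III region) was the light chain feature with the greatest male excess, at 16.1 against 3.95 TPM, over 364 and 82 reads and 4.07-fold (3.20 to 5.25). DN14071_c0_g3 (334 bases, Ig kappa chain V region) stood at 6.95 and 7.43 TPM on 23 and 22 reads, with a fold of 1.07 (0.57 to 2.01).

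The light chain sum was 2366 TPM (male) and 5357 TPM (female), a 2.26-fold difference (2.20 to 2.33). Without DN14107_c0_g1 the sums were 1343 and 2031 TPM, 1.51-fold. The 6 light chain features of at least 500 bases together were 0.917 times the male level in the female library, so the female excess of this class was in its short features.

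Heavy chains showed 1 abundant IgM feature that was higher in the female library and less abundant features with a V-set domain that went both ways. DN14744_c0_g1 (1844 bases, mu heavy chain-like, the longest immunoglobulin feature) stood at 295 TPM (male) and 611 TPM (female). The difference was 2.07-fold (2.04 to 2.11) over 19250 and 36813 reads, the largest read numbers of any member.

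The more abundant feature annotated as IgT was close to level. DN13213_c0_g1 (421 bases, immunoglobulin T heavy chain, secreted form) has V-set as its first listed domain and matches a heavy chain V region in Swiss-Prot. Its class is taken from its name. It stood at 208 TPM (male) and 198 TPM (female), a fold of 0.95 (0.88 to 1.03). DN14744_c0_g3 (463 bases, tau heavy chain, with a C1-set domain) was low, at 7.99 and 1.33 TPM, on 66 and 10 reads, 6.01-fold higher in the male (3.06 to 13.1). The class of the mu features whose first listed domain is V-set is likewise taken from their names.

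The widest differences of all members were in mu features with a V-set domain. DN13127_c0_g2 (502 bases) stood at 0.10 TPM in the male library, which is 1 read, and at 99.01 TPM in the female library on 889 reads, a ratio of 990 (175 to 38632). DN13070_c1_g5 (414 bases, partial mu chain) went the other way, at 19.3 TPM on 121 reads in the male and 1.25 TPM on 7 reads in the female library, 15.4-fold (7.34 to 39.6). These 2 of 33 members were at least 10-fold apart, against 0.761% of all features. Both were under 6.01 TPM in their lower library and entered through the library where they are high. The share is over features of any length and depth.

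DN13127_c0_g8 (440 bases) stood at 0.82 and 6.94 TPM on 6 and 46 reads, 8.46-fold higher in the female (3.61 to 24.3). DN13127_c0_g5 (356 bases) stood at 29.3 and 11.8 TPM, 2.48-fold higher in the male (1.74 to 3.60). DN13070_c1_g1 (443 bases) stood at 99.98 and 48.3 TPM, 2.07-fold higher in the male (1.81 to 2.36). Of these 5 mu features, then, 2 had the higher value in the female library and 3 in the male.

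The last 2 heavy chain features, both named Ig heavy chain Mem5-like, stood at 9.36 and 7.37 TPM (DN11762_c0_g4, 739 bases) and at 7.26 and 5.71 TPM (DN13006_c0_g10, 826 bases). Each was 1.27-fold higher in the male library. The other annotation columns of DN11762_c0_g4 name a T-cell receptor beta chain, so its class is uncertain. The heavy chain sum was 677 TPM (male) and 990 TPM (female), 1.46-fold (1.42 to 1.504), and without DN14744_c0_g1 it was 382 and 379 TPM.

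**Figure D2:**
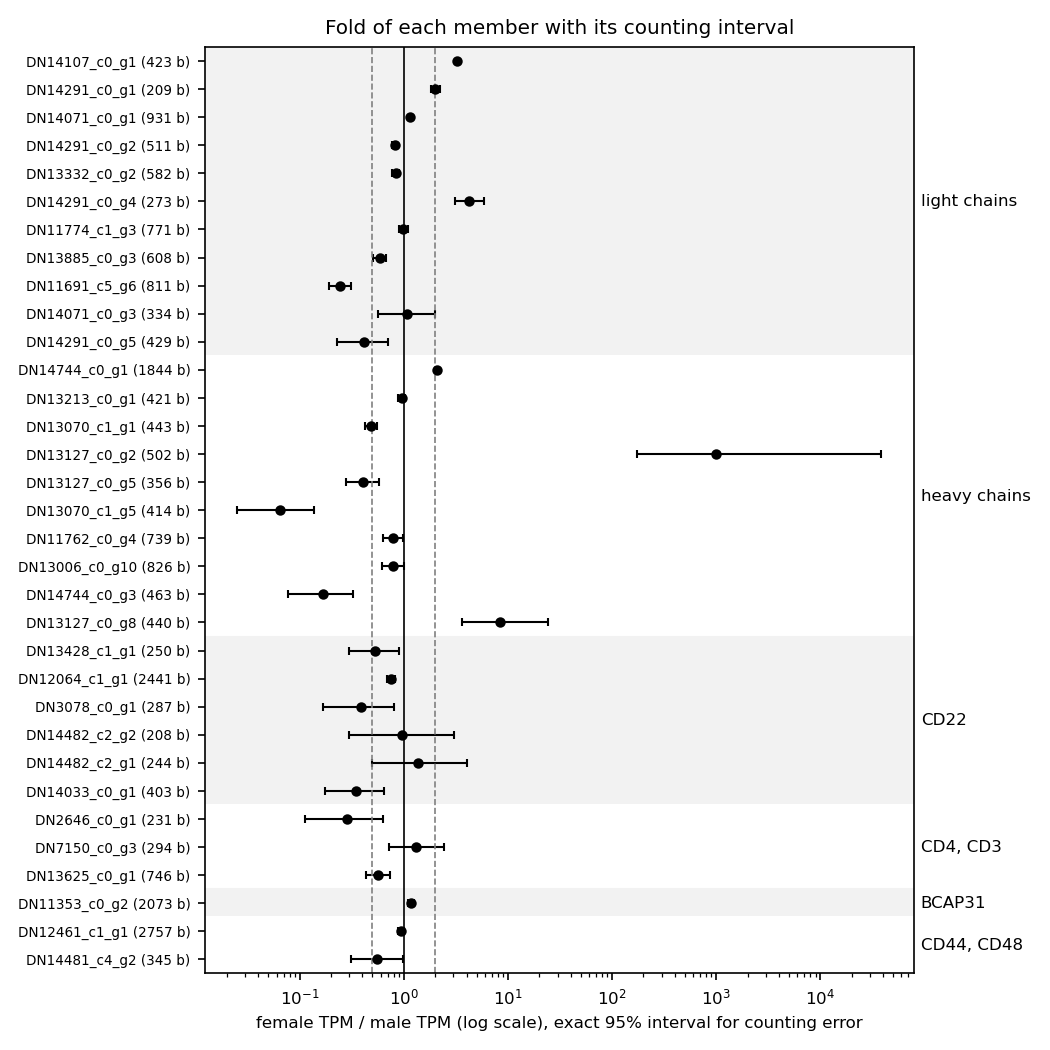
Female over male ratio of TPM (log scale) of each member with its exact 95% interval for counting error, with the solid line at equal levels and dashed lines at 2-fold. The intervals of 8 members lie wholly past a dashed line, 5 of them heavy chains and 3 light chains.

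The counting interval lay wholly past 2-fold in 8 members, all of them immunoglobulin chains, against 2.51% of all features. That share is over features of any depth, and none was taken among features with like read numbers. Of the 8, DN13127_c0_g2, DN13127_c0_g8, DN13070_c1_g5, DN14744_c0_g3 and DN11691_c5_g6 were under 6.01 TPM in their lower library. They entered through the library where they are high. The size of the difference is described here by protein domain, taken as the first listed for each feature, which may hold others. The median absolute log2 ratio was 1.05 over the 12 immunoglobulin features with a V-set domain and 0.33 over the 5 with a C1-set domain. It was 0.96 over the 4 with no domain given. The 0.33 is the value of DN11762_c0_g4, whose class is uncertain. The other C1-set features had log2 ratios of 1.70, 0.21, -0.26 and -2.21, so the C1-set median rests on that 1 feature. Of the 12, 4 were in the table through 1 library alone, and of the 5, 1 was. The V-set and C1-set groups also differ in feature length, with medians of 442 and 582 bases, and no test was made of the difference.

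Further immunoglobulin features were found that the rule missed, because their annotation spells the name otherwise or only another column names a chain. They were chosen after their values were seen and numbered 14, of which 7 were heavy chains, 5 light chains and 2 T-cell receptor beta chains. DN12854_c1_g1 (420 bases), annotated as hemicentin-1-like but matched in Swiss-Prot to an Ig heavy chain V region, stood at 44.6 TPM (male) and 396 TPM (female), 8.87-fold. DN14107_c0_g3 (234 bases, light chain) stood at 209 TPM (male) and 10.5 TPM (female), 19.9-fold higher in the male. It belongs to the same component as the most abundant light chain, which was higher in the female library.

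DN14291_c0_g3 (485 bases, light chain) stood at 139 and 356 TPM, 2.56-fold higher in the female. With these features included, 17 heavy chain features summed to 922 TPM (male) and 1584 TPM (female), 1.72-fold. The 16 light chain features then summed to 2876 and 5986 TPM, 2.08-fold.

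Features whose identifiers share a stem come from one component of the assembly and can share sequence, and how reads were divided between them is uncertain, so sums over a component are given here. The 21 immunoglobulin members and the 12 other heavy and light chain features fell into 15 components, 9 of them with several features. In 4 of these 9, at least 1 feature was apart in each direction. No such share was taken over all components in the table with several features, so this count has no baseline. Among all features of up to 500 bases, 24.3% were apart in either direction. The count also takes in the 12 other features, which were picked with their values known. In DN14107_c0 the feature apart toward the male library was among these 12. In DN13127_c0 every feature apart toward the female library was under 6.01 TPM in the male library. In DN14291_c0 and DN14744_c0 the feature apart toward the male library was under 6.01 TPM in the female library. Such features entered through the library where they are high. The sum of DN14107_c0 was 1232 TPM (male) and 3337 TPM (female), 2.71-fold, and that of DN14291_c0 was 1062 and 1976 TPM, 1.86-fold. DN14744_c0, with the long mu chain, summed to 433 and 749 TPM, 1.73-fold.

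Among the components of mu variable features, directions were mixed. DN13127_c0 summed to 58.5 TPM (male) and 144 TPM (female), 2.45-fold. DN13070_c1 summed to 131 and 51.3 TPM, 2.55-fold higher in the male, with all of its 3 features at least 2-fold higher there. As far apart in that direction were 16.1% of all features of up to 500 bases. DN13070_c1_g5 and DN13070_c1_g3, at 1.25 and 1.77 TPM in the female library, were under 6.01 TPM there. They entered through the male library alone. Picked with their values known were DN13070_c1_g3 and both features of DN12854_c1. DN12854_c1 summed to 57.6 and 419 TPM, 7.28-fold higher in the female.

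**Figure D3:**
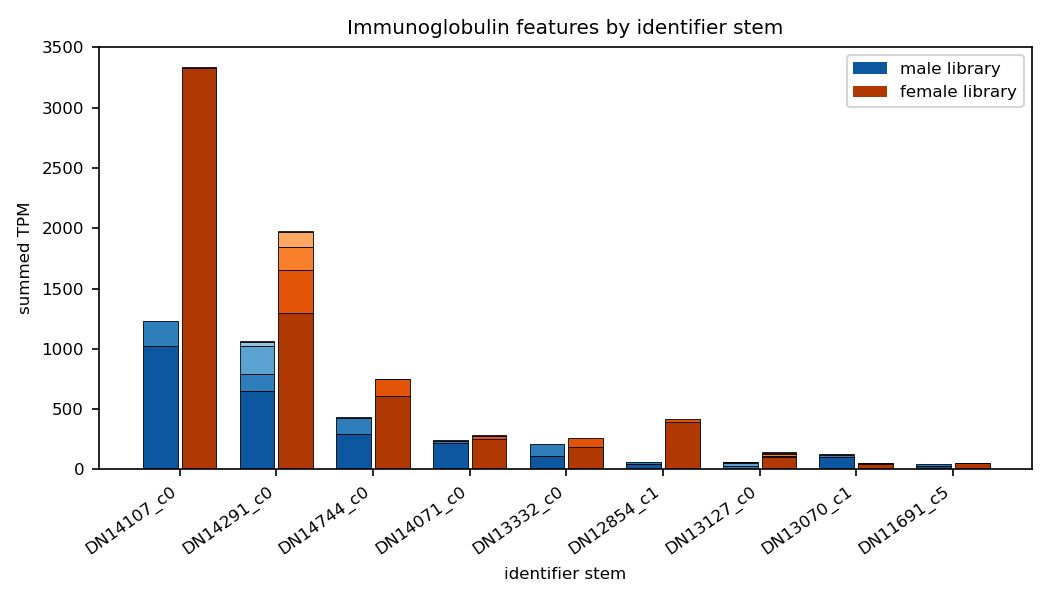
Summed TPM of heavy and light chain features of the same assembly component in the male (blue) and female (orange) library, for the 9 components with several features. Segments are single features, the one most abundant over both libraries at the bottom. DN14107_c0 and DN14291_c0 hold most of the TPM and are higher in the female library, whereas DN13070_c1 is higher in the male library.

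CD22, a sialic acid-binding receptor that restrains B-cell receptor signalling in mammals, was low in both libraries. Its longest feature, DN12064_c1_g1 (2441 bases), stood at 13.1 TPM (male) and 9.93 TPM (female), 1.32-fold higher in the male (1.21 to 1.45) over 1181 and 825 reads. The most abundant, DN13428_c1_g1 (250 bases), stood at 32.7 and 17.3 TPM on 44 and 21 reads, 1.88-fold (1.10 to 3.36).

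DN3078_c0_g1 (287 bases) stood at 14.4 and 5.52 TPM, 2.60-fold higher in the male (1.23 to 5.99), and DN14033_c0_g1 (403 bases) at 7.71 and 2.66 TPM, 2.90-fold (1.56 to 5.71). Both were under 6.01 TPM in the female library and entered through the male library alone. DN14482_c2_g2 (208 bases) and DN14482_c2_g1 (244 bases) rested on 7 to 10 reads in each library; the first stood at 8.52 and 8.27 TPM and the second at 6.28 and 8.68 TPM. In all, 5 of the 6 CD22 features were higher in the male library, and their sums were 82.7 and 52.4 TPM, 1.58-fold (1.20 to 2.08). CD22-like names are shared by a family of related receptors in fish, so these features need not be 1 gene.

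The enzymes and adaptors that carry the signal of the B-cell receptor were lower in the female library in most cases, though none by 2-fold. Of 13 genes in the list, 11 were matched, 9 of them higher in the male library, and the median log2 ratio was -0.42. Values in brackets are TPM, male first. The kinases syk (29.7 and 20.7) and btk (8.36 and 6.11) and the adaptor blnk (7.62 and 4.57) were lower in the female library, whereas the kinase lyn stood at 12.9 and 13.0. The female value of blnk is under 6.01 TPM, so blnk entered through the male library alone. The phosphatases ptpn6 (26.4 and 14.8) and inpp5d (10.4 and 6.27), which damp the signal, had the widest differences, with log2 ratios of -0.81 and -0.69.

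Other genes of the list were closer, with pik3ap1 at 12.9 and 9.48, vav1 at 15.9 and 13.9, malt1 at 11.0 and 8.40, and prkcb at 24.4 and 25.04. Over its 4 features prkcb summed to 69.9 and 58.3, with the male value higher. Most of these genes are used by other leukocytes as well. Among B-cell and plasma-cell markers, 8 of 20 were matched, and cd79a and cd79b, the signalling chains of the B-cell receptor, were not among them. The most abundant feature, named for CD40, stood at 250 and 284 TPM, and xbp1, a factor needed by plasma cells but used by many others, at 94.5 and 92.4 TPM. The extremes were ebf1 (5.58 and 14.9 TPM on 13 and 31 reads) and irf4 (20.0 and 6.99 TPM on 19 and 6 reads), and the median log2 ratio was -0.13, with 6 of the 8 higher in the male library. The male value of ebf1 is under 6.01 TPM, so ebf1 entered through the female library alone. Over all of their features, irf4 summed to 67.3 and 19.5 TPM (4 features) and cd40 to 339.6 and 336.6 TPM (5 features).

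Of the T-cell surface glycoproteins, CD4 and CD3 delta were higher in the male library. CD4-like DN2646_c0_g1 (231 bases) stood at 27.6 TPM (male) and 7.86 TPM (female), on 31 and 8 reads, 3.51-fold (1.58 to 8.85). CD3 delta, DN13625_c0_g1 (746 bases), a signalling chain of the T-cell receptor complex, stood at 8.72 and 4.91 TPM on 174 and 90 reads, 1.78-fold (1.37 to 2.32). Its female value is under 6.01 TPM, so it entered through the male library alone. CD3 epsilon, DN7150_c0_g3 (294 bases), another such chain, stood at 10.1 and 13.3 TPM on 22 and 26 reads, with a female over male fold of 1.32 (0.72 to 2.44) whose interval holds 1. The class summed to 46.4 and 26.1 TPM, 1.78-fold higher in the male (1.23 to 2.58), and without CD4 to 18.8 and 18.2 TPM.

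The 2 features that other columns name as T-cell receptor beta chains stood at 20.1 and 14.6 TPM (2029 bases) and at 16.2 and 8.97 TPM (550 bases). They were 1.38-fold (1.27 to 1.497) and 1.81-fold (1.41 to 2.33) higher in the male library. Of 24 T-cell and NK-cell genes 13 were matched, among them the CD3 chains and CD4 above; 11 had the higher value in the male library, 5 of them by at least 2-fold, and the median log2 ratio was -0.57. Those 5 rest on features of 218 to 349 bases; 10.1% of all features, and 16.1% of those of up to 500 bases, were as far apart in that direction. The largest log2 ratio, with 0.5 TPM added, was that of cd2, an adhesion receptor of T and NK cells, at -1.78. It stood at 101 and 29.1 TPM on 202 and 52 reads, 3.47-fold (2.56 to 4.83). Without the added 0.5 TPM, runx3 (3.62-fold, on 12 and 3 reads) and CD4 (3.51-fold) were farther apart.

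The other 3 past 2-fold were runx3 (11.9 and 3.29 TPM, on 12 and 3 reads), the homing receptor ccr7 (11.0 and 3.81 TPM) and the interleukin-7 receptor il7r (19.1 and 8.21 TPM). The female values of runx3 and ccr7 are under 6.01 TPM, so these features entered through the male library alone. The interval of runx3 holds 1 (0.98 to 20.0, male over female). Of the cytotoxic genes, the most abundant feature of prf1 stood at 11.6 and 11.6 TPM and that of gzmb at 11.4 and 11.3 TPM. Over all of their features, prf1 summed to 29.5 and 19.4 TPM and gzmb to 17.8 and 14.96 TPM. Of the signalling genes of the T-cell receptor, 6 of 13 were matched and 4 favoured the male library, none was past 2-fold, and the median log2 ratio was -0.07.

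The kinase zap70 stood at 4.65 and 6.32 TPM, with a fold whose interval holds 1 (0.96 to 1.93). Its male value is under 6.01 TPM, so zap70 entered through the female library alone. The most abundant feature of the kinase fyn stood at 26.8 and 33.3 TPM, and its 6 features together at 112.4 and 112.8 TPM. Those higher in the male library were lcp2 (7.38 and 6.66 TPM), plcg1 (8.29 and 7.33 TPM) and nfatc2 (9.23 and 7.30 TPM), and grap2 was level at 9.69 and 9.66 TPM.

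The remaining members are not receptors of antigen. The B-cell receptor-associated protein 31, DN11353_c0_g2 (2073 bases), is a chaperone of the endoplasmic reticulum found in most cells, and stood at 22.04 and 25.9 TPM, 1.17-fold higher in the female (1.10 to 1.25). CD44, DN12461_c1_g1 (2757 bases), a receptor for hyaluronan on many cell types, stood at 15.7 and 14.7 TPM, with a fold of 0.94 (0.87 to 1.006). CD48, DN14481_c4_g2 (345 bases), an adhesion molecule of leukocytes, stood at 10.9 and 6.08 TPM on 40 and 20 reads, 1.79-fold higher in the male (1.02 to 3.23).

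Markers of some other cells also differed between the 2 libraries. All 6 haemoglobin features, products of red blood cells, were more than 2-fold above the male value in the female library, and their sum was 1073 TPM (male) and 2331 TPM (female), 2.17-fold. As far apart in that direction were 5.02% of all features, 8.14% of those of up to 500 bases and 0.748% of longer ones. The haemoglobin feature DN15850_c0_g1, at 1.23 and 6.64 TPM, was under 6.01 TPM in the male library and entered through the female library alone. Of 10 erythrocyte genes 5 were matched, with a sum of 853 and 1722 TPM; slc4a1, the anion exchanger of red cells, stood at 12.3 and 11.3 TPM. All 6 matched pan leukocyte genes of 11 listed were higher in the male library, by log2 ratios of -0.29 to -0.58 and none by 2-fold, and ptprc, the common leukocyte antigen, stood at 15.1 and 11.1 TPM. The part of blood in the sample, or of leukocyte number, in the immunoglobulin and receptor results was not tested.

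Microglia and macrophage genes, with 9 of 13 matched, had a median log2 ratio of -0.20 and summed to 183 and 152 TPM. The 3 matched granulocyte genes of 8 had a median of -0.07, and thrombocyte genes, 2 of 6, a median of 0.65. The 6 vessel genes had a median of 0.13, the 10 neuron genes -0.18, and 7 matched glia genes of 8 a median of 0.32. None of these lists held more than 1 gene past 2-fold.

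**Figure D4:**
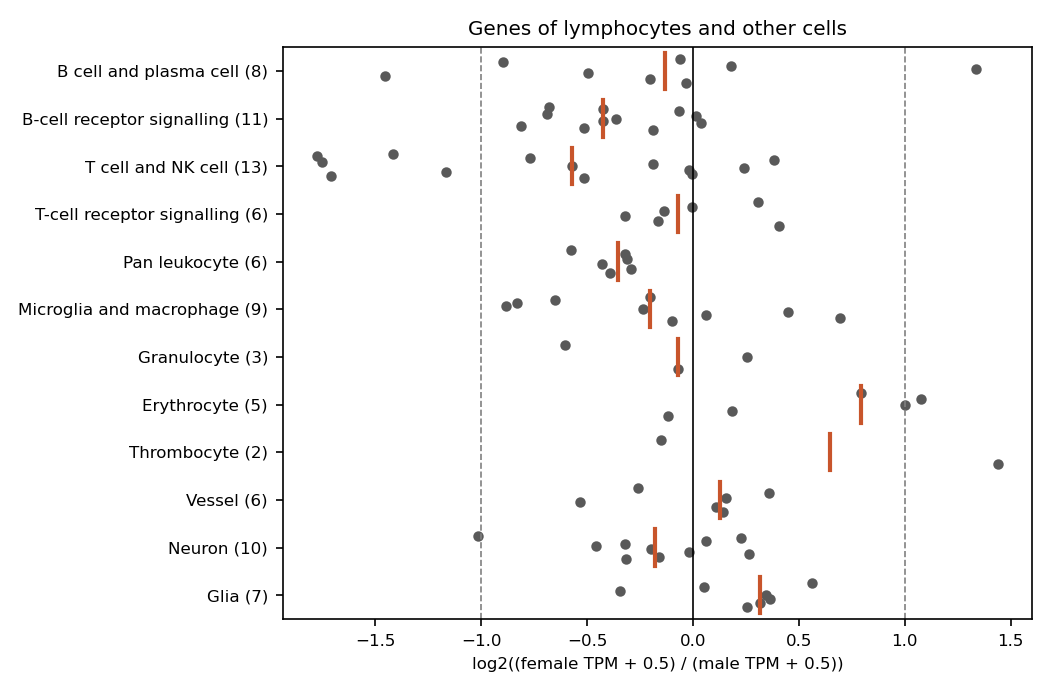
Log2 ratio (female over male, 0.5 TPM added to both) of each matched gene of 12 lists, with the number matched in brackets, the vertical bar at the list's median and dashed lines at 2-fold. All 6 pan leukocyte genes lie left of 0 and the erythrocyte median lies at 0.79, right of all other list medians.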

How the data were processed

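Poly(A) RNA of brain from 1 male and 1 female discus was made into unstranded paired-end libraries, per the labels' protocols. The authors deposited 1 table of assembled features with TPM per library and annotation columns. Tools named, per the submitters' processing notes, are Salmon, edgeR, cutadapt and FastQC, with no version and no role, and a genome build is not given in the sources used here. TPM divides reads by length and fixes the total, so an abundant feature lowers all others.

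Columns were matched to libraries by title and grouped by gender. The ratio was log2((female TPM + 0.5) / (male TPM + 0.5)), and 2-fold on that scale was counted as apart. With 1 library per sex no test or p-value was possible. At any given length, TPM rose in equal steps, each taken as the worth of 1 read. Steps were found one by one for 201 to 380 bases, in moving windows up to 600 bases, and from a line in 1/step beyond. Values within 0.1 of a whole read were 95.5% of 13525 (male) and 95.2% of 15160 (female) under 30 reads at 201 to 380 bases. At 601 to 700 bases, outside the lengths used, they were 86.8% of 243 and 85.1% of 410 under 100 reads. Reads gave 95% intervals, exact for single features and normal on a log scale for sums, which cover counting error only and would be too narrow with duplicate reads. The recovery was tried on simulated data, with the outcome not reported here. Beyond 700 bases the share of whole reads was not taken, so reads of longer features rest on the line in 1/step.

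The members, the 12 lists (142 genes, 86 matched by symbol or protein name, each by its feature with the highest mean, with matches to other proteins excluded on names after the data were seen) and the alternatives were chosen with earlier results of these data known. The naming rule took every member of at least 500 bases, the 10 most abundant, the 10 largest ratios per direction, and every matched B-cell and T-cell receptor signalling gene, of which 1 is counted but its values are not reported here. From the other lists it took the 2 largest ratios and the most abundant gene, of which the lists of cells other than lymphocytes are given mainly as counts and medians. The other members are given as well. No sequence is printed, since none was in the files used here. Software was SciPy 1.17.1, pandas 2.3.3, Matplotlib 3.10.9 and NumPy 2.4.6 under Python 3.11.15.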

Additional observations from a re-analysis of the deposited data

How the results depend on the processing

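Values counted as close were counts and medians within 1.5 times, and sums and single ratios within the counting interval. Of 39 values over several members 26 stayed close and 13 did not, 2 of which turned (the heavy and light chain sums named below). Of 99 values of single members 94 stayed close, and 3 close to level (DN11774_c1_g3, DN13213_c0_g1 and DN14482_c2_g2) turned when centred. The log2 ratio of DN13127_c0_g2, 7.37, was 8.95 with 0.1 TPM added and 6.51 with 1 TPM. Of 36 list medians 24 stayed close and 4 turned. With a mean of at least 10 TPM, the count toward the male library was 5 instead of 9 and the median over members -0.092. Among features of at least 500 bases the counts were 2 (female) and 1 (male), the heavy chain sum was 2.32-fold higher in the female library, and the light chain sum turned to 0.917. Without its most abundant member the female over male sum was 0.993 for heavy chains, 1.51 for light chains and 0.968 for T-cell glycoproteins. Divided by the median ratio of all features, the heavy and light chain sums were 1.54 and 2.38. With features named by other columns, an alternative chosen after the data were seen, they were 1.72 and 2.08. Restricting the members to immunoglobulin chains, also chosen later, left 5 and 6 calls. No paired analysis was possible because each sex has 1 library. Depth limits the short features, whose intervals are wide.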

Other observations

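Receptors that bind immunoglobulin, which the rule did not take and which were chosen after the data were seen, were mostly higher in the male library. The immunoglobulin sum went the other way, though 13 of the 21 immunoglobulin chain features were also higher in the male library. Of the 16 receptor features, 14 were higher in the male library, 4 of them by at least 2-fold, and 1 was past 2-fold with the female value higher. Those 4 are features of 235 to 394 bases, and all were under 6.01 TPM in the female library. The 1 past 2-fold toward the female library was under 6.01 TPM in the male library. Each thus entered through the library where it is high. As far apart in the male direction were 10.1% of all features and 16.1% of those of up to 500 bases. The 16 features summed to 275 TPM (male) and 175 TPM (female), 1.57-fold, with a median log2 ratio (female over male) of -0.57. The polymeric immunoglobulin receptor carries antibody across epithelia. Features named for it, or as like it, were higher in the male library in 4 of 4 cases, and they need not be 1 gene. They summed to 63.5 and 29.6 TPM, 2.15-fold. The longest of them (1332 bases) stood at 22.4 TPM on 989 reads in the male and 11.0 TPM on 447 reads in the female library. The interval of DN7808_c0_g1 (19 and 9 reads) holds 1 (0.83 to 4.80, male over female).

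Fc receptors, which bind the antibody tail on leukocytes, summed to 85.9 and 41.7 TPM over 5 features. One of them, an Fc epsilon receptor alpha-like feature of 235 bases, stood at 23.2 TPM on 27 reads in the male library and at 0 in the female library, where a count of 0 allows up to 2.84 TPM (3 reads). The gamma subunit shared by Fc receptors, in its more abundant feature (1000 bases), stood at 57.7 and 45.6 TPM on 1755 and 1276 reads. Fc receptor-like protein 5 went both ways over 5 features, with sums of 55.0 and 48.4 TPM. With 1 library per sex, none of these differences was tested.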
